A study of Sus scrofa with 13 samples.

Results

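The kidney of the adult pig was compared with 8 other organs of the same age by total RNA sequencing. The kidney library is 1 of 9 adult organ libraries in a series of 13, and each adult organ was sequenced as 1 library. All 9 came from Guizhou mini-pigs at postnatal day 240, with no treatment named in the labels. The organs set against kidney were heart, liver, spleen, lung, testis, ovary, adipose tissue and longissimus dorsi muscle. Longissimus dorsi libraries of day 0 and day 30 and 2 mixtures of breeds and ages completed the series and entered no comparison. The labels name no individual animal and do not say whether a library holds a pool, and testis and ovary cannot share an animal. The tissue of the kidney library is spelled kindey in its label. The levels of kidney genes in it are therefore given by nephron segment below, and are no independent check of the label.

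Blood is filtered in the glomerulus by podocytes, and the filtrate then passes along the tubule. The proximal tubule takes back most of the glucose, amino acids, phosphate and bicarbonate and secretes organic acids and bases. The thick ascending limb of the loop of Henle and the distal convoluted tubule take up salt without water. In the collecting duct, principal cells adjust sodium and water while intercalated cells secrete acid or base. The kidney also makes hormones, such as erythropoietin and the active form of vitamin D.

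Expression was given as RPKM, a read count scaled by feature length and by the reads of the library, for 21607 Ensembl genes and 10813 long noncoding RNAs (lncRNAs). The kidney library held 6488599 reads counted to these features, within the range of 3629806 in liver to 12394421 in testis. At this depth, 3 reads of a feature of 1 kilobase equal 0.0825 RPKM in kidney. Summed RPKM was 101533 in kidney and ran from 61672 in spleen to 214285 in ovary, so the libraries were not on 1 common scale. The lung library carried transcripts of hepatocytes, with ALB (serum albumin) at 343 RPKM against 5495 in liver and at most 2.58 in kidney and the other organs. With 1 library per organ no test between organs was possible. Intervals given below are exact 95% intervals of the reads and cover counting error only. RNA from a whole organ also cannot separate fewer cells of a type from less RNA per cell.

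Features with at least 1 RPKM in at least 1 of the 9 organs were compared, which left 15252 Ensembl genes and 3346 lncRNAs. Differences were taken on the scale log2(RPKM + 0.1), and a difference of 1 (2-fold) set the limit for a call. On this scale a difference understates the change of a feature near 0. In kidney, 463 Ensembl genes (3.04%) lay at least 2-fold above every other organ, and 136 of them lay at least 8-fold above. Only 31 genes (0.203%) lay at least 2-fold below every other organ. Against the median of the other organs, 3533 genes (23.2%) were higher in kidney and 1482 (9.72%) were lower. The median difference to that organ was 0.23 over all genes. After scaling each library to the same median ratio the median difference was 0, and the counts were 2660 higher and 1829 lower.

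The same rule applied to each other organ gave 112 genes in adipose tissue, 173 in heart, 203 in muscle, 305 in spleen, 342 in lung and 350 in liver. Ovary and testis stood apart with 2014 and 2576, and their libraries also had the highest summed RPKM (214285 and 190421). The counts by organ in this paragraph used RPKM without further scaling, and the part of library scale in them was not tested. Among the 463 kidney genes, the next highest organ was most often ovary (120 genes), liver (93) or lung (83), and least often muscle (11). Across the tested Ensembl genes, the Spearman correlation of kidney was highest with adipose tissue (0.696), liver (0.689) and lung (0.687). It was lowest with testis (0.412), a value that depends on the filter, since the tested genes include the 2576 of testis. The points of these correlations are genes, which share libraries and are not independent, so they describe the profiles only.

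**Figure D1:**
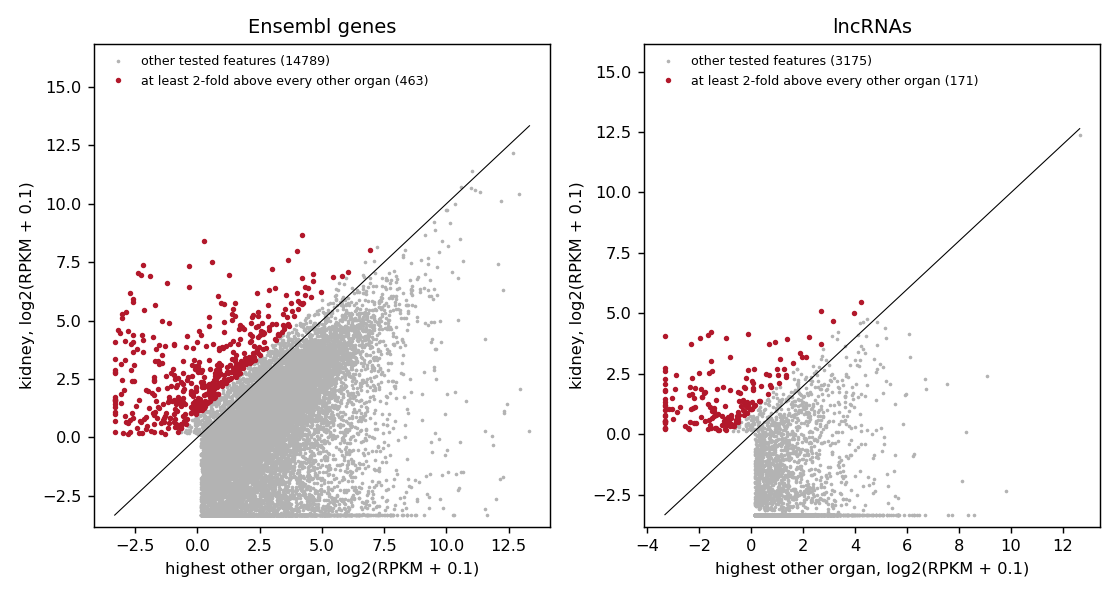
Kidney against the highest of the 8 other organs on log2(RPKM + 0.1) for tested Ensembl genes (left) and lncRNAs (right), with equality as a line. Red points are the 463 genes and 171 lncRNAs at least 2-fold above every other organ, and many of them sit at the left edge, where the other organs were near 0.

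By size of the difference to the highest other organ, UMOD led the named Ensembl genes. UMOD encodes uromodulin, the most abundant protein of normal urine, made by the thick ascending limb. Its level was 164.7 RPKM in kidney (interval 161 to 168) and ranged in the other 8 organs from 0 through a median of 0 to 0.121 in liver. The ratio to liver was 1356 (623 to 3697). No other organ came near kidney, and the liver value rested on 6 reads.

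Transporters and enzymes of the tubule filled much of the same list. SLC5A12, a sodium-coupled lactate carrier, stood at 123.7 RPKM against a lowest of 0, a median of 0.0381 and a highest of 0.106 in spleen. SLC12A1, the salt cotransporter that loop diuretics block, stood at 73.4 RPKM against 0, 0.0192 and 0.0550 in liver. CALB1, the calcium-binding protein calbindin of the distal tubule, stood at 121.5 RPKM against 0, 0 and 0.166 in ovary. For each of these 3 genes the kidney level was at least 732 times that of the next organ.

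KLK1, tissue kallikrein, reached 61.6 RPKM in kidney and at most 0.0653 in another organ. TINAG, an antigen of tubular basement membrane, reached 55.4 RPKM and at most 0.0660. AOC1, an amine oxidase that breaks down histamine and putrescine, was the most abundant of the named genes called, at 338.5 RPKM against 1.09 in spleen. MCCD1 stood at 131.4 RPKM with 1 read in liver, which gave a ratio of 1471 with a wide interval of 264 to 58118. The organic ion carriers SLC22A8 and SLC22A2 completed the 10 named genes with the greatest differences. Among genes with no symbol here, ENSSSCG00000028642 (34.2 RPKM), ENSSSCG00000000961 (96.4 RPKM) and ENSSSCG00000013480 (161.3 RPKM) led, with 0.683 RPKM the highest value of any of them elsewhere.

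At the limit itself, IGF1R, MT3 and RHCG lay just inside, each at 1.0 on the log2 scale with ovary next. KCP and ARHGAP24 lay just outside at 0.99. The 463 genes ranged in kidney from 1.001 to 409.9 RPKM with a median of 6.68. The upper end was ENSSSCG00000015084, which was also at 18.3 RPKM in lung. Other abundant members were KCNJ15, a potassium channel, at 194.3 RPKM against 12.3 in lung, ENSSSCG00000007858 at 251.5 RPKM against 15.9 in liver, ENSSSCG00000015929 at 184.5 against 1.40 in spleen and ENSSSCG00000024957 at 147.9 against 7.88 in liver. ENSSSCG00000005395 stood at 261.9 RPKM against 121.7 in liver, and scaling to the median ratio turned its log2 difference from 1.10 to -0.26.

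Of 179 genes listed as markers of the kidney, 128 matched a symbol in the files, and 114 of these passed the filter. At least 2-fold above every other organ were 74 of the 128 (57.8%), beside 3.04% of all tested Ensembl genes. These genes were listed because they are known in kidney, and the lists were chosen with earlier results of these data known. The share therefore describes how the listed genes stood in this library and is no independent check of its label. It counts all 128 matched genes, whereas the 3.04% counts tested genes only. A further 34 of the 128 were higher in some other organ, most often in liver (8) or testis (7). SLC34A1, SLC12A3, KL and PAX8 had no match here.

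**Figure D2:**
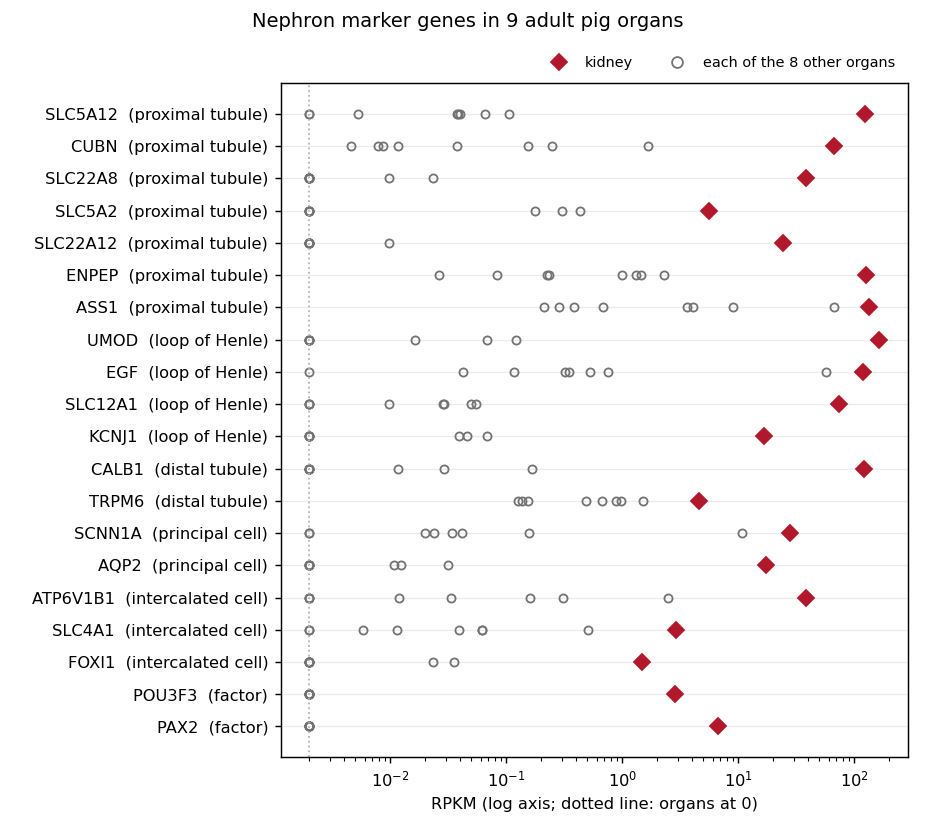
RPKM (log axis) of 20 marker genes, grouped by nephron segment, in kidney (red diamonds) and each of the 8 other organs (open circles), with organs at 0 drawn on the dotted line. All 20 were picked from the 74 listed genes called above every other organ, so kidney lies to the right for each. It does so by the least for ASS1 (134.8 against 67.1 in liver) and EGF (119 against 56.6 in muscle). The 34 listed genes higher in another organ were not drawn.

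Of 6 matched podocyte genes, 1 was called. NPHS1, which encodes nephrin of the slit diaphragm between podocytes, was at 0.491 RPKM in kidney and 0.261 in testis and did not pass the filter. The interval of the NPHS1 ratio, 0.912 to 4.03, included 1.

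The other podocyte genes were shared with other organs. PTPRO, a podocyte phosphatase, was at 2.68 RPKM against 1.502 in lung, and without the lung library it passed the limit. PLA2R1, the phospholipase A2 receptor, was at 2.90 RPKM in kidney and 3.93 in ovary. WT1, a transcription factor of podocytes and of the gonad, was at 1.39 RPKM in kidney and 5.10 in spleen.

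Proximal tubule transporters were among the clearest kidney genes: 21 of 27 matched were at least 2-fold above every other organ, 1 was below the median organ and none was below every organ. The median difference of the 27 to the highest other organ was 3.66 on the log2 scale, beside -2.05 for all tested Ensembl genes. After SLC5A12 the most abundant was CUBN, which encodes cubilin, a receptor for filtered proteins, at 66.3 RPKM. In the other organs CUBN ran from 0.00457 through a median of 0.0244 to 1.65 in testis. SLC4A4, which returns bicarbonate to blood, was at 53.2 RPKM against 0.139, 1.26 and 1.82 in ovary. SLC13A1, the sulfate carrier, was at 52.1 RPKM against 0, 0.0610 and 2.02 in testis. In all 4 genes the kidney stood clear of the other organs, by 25.8-fold or more.

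Glucose, urate and amino acid carriers showed the same order at lower levels. SLC5A2, the main glucose cotransporter of the proximal tubule, was at 5.58 RPKM against 0.432 in testis, and its relative SLC5A1 was at 2.34 against 0.729 in testis. SLC22A12, the urate exchanger, was at 24.5 RPKM with 1 read in lung and none in the other 7 organs. AMN, the membrane partner of cubilin, was at 23.6 RPKM against 0.0460 in testis. For amino acids, SLC7A8 was at 36.9 RPKM, SLC6A18 at 21.9, SLC3A1 at 18.7, SLC7A9 at 4.06 and SLC6A19 at 2.97, each at least 5.91-fold above the next organ.

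Some carriers were higher in liver. SLC2A2, a glucose carrier of liver and proximal tubule, was at 9.36 RPKM in kidney and 48.3 in liver. SLC22A7, an organic anion carrier, was at 1.58 RPKM in kidney and 24.5 in liver. SLC20A2, a phosphate carrier used by many tissues, was the 1 member below the median organ, at 0.721 RPKM against a median of 1.61, and it was not below that limit once libraries were scaled. SLC7A7, an amino acid carrier at 8.77 RPKM against 3.75 in spleen, lost its call under both scalings.

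Enzymes of the proximal tubule were called in 12 of 20 matched genes, and all 20 were at least 2-fold above the median organ. ENPEP, an aminopeptidase that cleaves angiotensin, was at 125 RPKM in kidney against 0.0263, 0.614 and 2.29 in ovary. DPEP1, a dipeptidase of the brush border, was at 31.4 RPKM against 0, 0 and 0.277 in ovary. ACMSD, an enzyme of tryptophan breakdown, was at 8.68 RPKM against 0, 0 and 0.245 in liver. Both peptidases therefore stood more than 50-fold above the next organ.

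Liver was the highest other organ for most enzymes of intermediary metabolism. ASS1, which makes the precursor of arginine, was at 134.8 RPKM in kidney and 67.1 in liver, with a median of 2.16 over the other 8. PCK1, the gatekeeper of gluconeogenesis, was at 116 RPKM in kidney and 43.1 in liver. AGXT2, a mitochondrial aminotransferase, was higher in liver, at 143 RPKM against 88.8 in kidney. Scaling to the median ratio turned the ASS1 difference from 1.01 to -0.36 and lowered that of PCK1 from 1.43 to 0.07, and it left 7 of the 20 enzymes called. With liver left out, 17 of the 20 were called.

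The loop of Henle was called in 8 of 10 matched genes, with a median difference of 3.35 to the highest other organ. Besides UMOD and SLC12A1, KCNJ1, the potassium channel that recycles potassium for SLC12A1, was at 16.7 RPKM against 0.0676 in adipose tissue. CLDN16, a tight junction protein of the paracellular magnesium route, was at 4.003 RPKM against 0.0305 in adipose tissue. BSND, the chloride channel subunit barttin, was at 3.22 RPKM with no read in the other 8 organs, at least 22.5-fold above the 3-read floor of the shallowest of them. These genes were at or close to 0 outside kidney.

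Other called genes of this group were less restricted to kidney. CLDN10 was at 12.003 RPKM against 3.54 in spleen, and CASR at 1.53 against 0.598 in ovary. EGF, the epidermal growth factor precursor, stood at 119 RPKM in kidney and 56.6 in day 240 muscle. The median of EGF over the 8 organs was 0.333. Scaling to the median ratio moved the log2 difference of EGF to muscle from 1.07 to -0.21. PTGER3, a prostaglandin receptor, was higher in heart (6.03 RPKM against 2.26), and CLDN14, a claudin that blocks the cation pore, was higher in liver (11.5 against 1.49).

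In the distal convoluted tubule 2 of 7 matched genes were called, CALB1 and TRPM6. TRPM6, a magnesium channel, was at 4.57 RPKM against 0.126, 0.581 and 1.501 in testis. The kinase WNK1, which controls salt cotransport, was at 25.7 RPKM in kidney and 26.2 in testis, and CNNM2, a magnesium transport protein, was at 5.72 in kidney and 9.13 in ovary. Without testis and ovary, 5 of the 7 were called. All 7 were at least 2-fold above the median organ.

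In principal cells 4 of 8 matched genes were called. AQP2, the water channel under control of vasopressin, was at 17.5 RPKM (16.8 to 18.2) against 0, 0 and 0.0315 in lung, a ratio of 554 (237 to 1709). SCNN1A and SCNN1G, 2 subunits of the epithelial sodium channel, were at 27.9 and 4.30 RPKM against 10.8 and 0.849 in lung. The third subunit, SCNN1B, was at 1.27 RPKM in kidney and 1.20 in lung. HSD11B2, which shields the mineralocorticoid receptor from cortisol, was at 6.15 RPKM against 1.68 in ovary. The sodium channel was thus shared with lung and the water channel was not, and without lung 6 of the 8 genes were called.

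In intercalated cells 11 of 15 matched genes were called. The most abundant was ATP6V1B1, the B1 subunit of the proton pump, at 38.4 RPKM against 0, 0.0226 and 2.49 in spleen. SLC26A7, an anion exchanger, followed at 16.1 RPKM against 2.97 in ovary, and the pump subunits ATP6V0D2 and ATP6V0A4 were at 8.14 and 6.84 RPKM against 0.911 in testis and 0.996 in lung. Exchangers of both kinds of intercalated cell were called, SLC4A1 of the acid-secreting cell at 2.93 RPKM against 0.504 in spleen and SLC26A4 of the base-secreting cell at 2.75 against 0.579 in testis. FOXI1, the factor that sets intercalated cell identity, was at 1.49 RPKM against 0.0356 in spleen. AQP6, an aquaporin of these cells, was at 1.78 RPKM with 1 read in spleen.

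**Figure D3:**
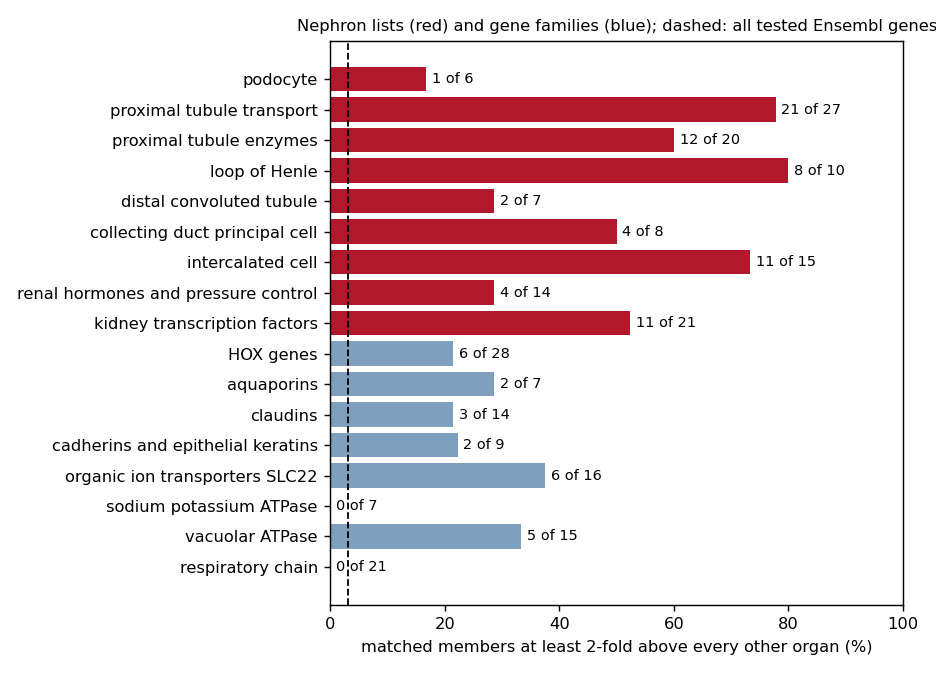
Percent of matched members at least 2-fold above every other organ for 9 lists of kidney genes (red) and 8 gene families (blue), with counts beside the bars. The dashed line is the 3.04% of all tested Ensembl genes, and the loop of Henle (8 of 10) and proximal tubule transport (21 of 27) reach furthest, whereas the sodium potassium ATPase and the respiratory chain have none.

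Hormone and pressure control genes were called in 4 of 14 matched genes. These were PDZK1, a scaffold of brush border transporters, at 79.7 RPKM against 7.24 in liver, PTH1R, the parathyroid hormone receptor, at 23.6 against 0.945 in ovary, VDR, the vitamin D receptor, at 4.64 against 0.460 in ovary, and CYP27B1, which activates vitamin D, at 1.03 against 0.0945 in testis. CYP24A1, which inactivates vitamin D, was at 0.922 RPKM and EPO, erythropoietin, at 0.131 RPKM. Both were listed at 0 in the other 8 organs and were below the filter, and EPO rested on 6 reads.

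None of the angiotensin genes of this list was called. ACE, which makes angiotensin II, was at 39.2 RPKM in kidney and 85.2 in testis. AGTR1, the receptor of angiotensin II, was at 6.25 RPKM in kidney and 6.24 in spleen. AGT, the precursor, was at 0.331 RPKM in kidney against a median of 9.03, and was the 1 member at least 2-fold below the median organ. DIO1, which activates thyroid hormone, was at 33.1 RPKM in kidney and 35.3 in liver, a difference within the counting error (ratio 0.940, interval 0.884 to 1.0006).

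Transcription factors of kidney development and identity were called in 11 of 21 matched genes. HNF4A, a factor of liver and proximal tubule, was the most abundant at 19.2 RPKM but stood at 14.6 in liver. PAX2, needed to form the kidney, was at 6.64 RPKM with no read in the other 8 organs, at least 60.2-fold above the floor. POU3F3, a factor of the distal nephron, was at 2.83 RPKM, also with no read elsewhere. MECOM was at 6.24 RPKM in kidney and 10.7 in lung. The factors with no read elsewhere marked kidney more sharply than those shared with liver or lung. Under scaling to the median ratio 7 of the 21 were called, and SALL1, ESRRG and ESRRB were among those lost.

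HOX genes, which record position along the body axis, were called in 6 of 28 matched genes. HOXB7 led at 5.87 RPKM against 1.64 in adipose tissue, and HOXD10 followed at 3.17 against 0.570 in adipose tissue. HOXA7, HOXD4 and HOXB8 were called at 1.20 to 2.44 RPKM. HOXC6 was at 4.09 RPKM in kidney and 4.07 in muscle, and HOXA10 was at 3.78 in kidney and 2.40 in ovary. With a pseudocount of 1, which weighs such low levels less, 2 of the 28 were called.

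Water and tight junction families were split. Of 7 matched aquaporins, AQP2 and AQP6 were called, AQP11 was at 0.995 RPKM in kidney against 6.27 in testis, and 3 others had no read in kidney. Of 14 matched claudins, CLDN10 (12.003 RPKM against 3.54 in spleen), CLDN8 (11.6 against 0.272 in ovary) and CLDN16 were called, and 7 had no read in kidney. CLDN11, the claudin of Sertoli cells and myelin, had no read in kidney against 71.4 RPKM in ovary.

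Of 9 matched cadherins, keratins and cilium genes, CDH16 and PKHD1 were called. CDH16, kidney cadherin, was at 37.6 RPKM against 4.65 in lung, and PKHD1, mutated in recessive polycystic kidney disease, was at 7.45 against 0.834 in lung. EPCAM, a general epithelial marker, was at 13.9 RPKM in kidney and 10.1 in lung. KRT8, a keratin of simple epithelia, was at 26.8 RPKM in liver and 10.1 in kidney. CDH1, the cadherin common to epithelia, was at 14.1 RPKM in lung and 2.40 in kidney.

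Organic ion carriers of the SLC22 family were called in 6 of 16 matched genes. SLC22A2, which takes up organic cations, was at 41.2 RPKM against 0, 0.00462 and 0.0364 in lung. SLC22A8 and SLC22A6, which take up organic anions, were at 38.5 and 20.5 RPKM against at most 0.0234 and 0.0644. SLC22A4, a carrier of ergothioneine, was at 1.69 RPKM against 0.362 in ovary. Over all solute carriers with a symbol, a count made after the values were seen, 46 of the 207 tested (22.2%) were called, beside 3.25% of all named genes tested.

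ATP1B1, a subunit of the sodium pump, was at 29.4 RPKM in kidney against 17.5 in ovary, a ratio of 1.68 (1.56 to 1.81) that did not reach the limit. None of the 7 matched genes of this family was called, but 2 were under both scalings. Of the vacuolar ATPase, 5 of 15 matched subunits were called, namely ATP6V1B1, ATP6V0D2, ATP6V0A4, ATP6V1C2 and ATP6V0A1. Subunits used by all cells were not, such as ATP6V1F at 40.4 RPKM against 42.3 in testis and ATP6AP2 at 10.3 against 25.2 in ovary.

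Mitochondrial transcripts made up a large part of the kidney library. The 13 protein genes of the mitochondrial genome took 18.3% of summed RPKM in kidney, 19.9% in heart, 13.2% in day 240 muscle and 2.57 to 11.2% in the other 6 organs. COX1, a cytochrome oxidase subunit, was the most abundant Ensembl gene in kidney at 4567 RPKM, against 505, 1518 and 6615 in heart. ATP6 and ND4 were highest in kidney, at 2701 against 2091 RPKM in heart and 1703 against 1539. None of the 13 was called above every organ, and 9 were at least 2-fold above the median organ. Nuclear genes of the respiratory chain and its control gave 0 of 21 called, with UQCRC1 at 48.2 RPKM against 156 in heart and ATP5F1A at 44.8 against 110 in heart.

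Few genes marked kidney by their low level. By difference to the lowest other organ, the named genes furthest down were ITIH4, LYVE1, PARVB, MMD and TM6SF1. ITIH4, a plasma protein of liver, was at 0.0364 RPKM in kidney against 0.331, 0.986 and 73.6 in liver. LYVE1, the hyaluronan receptor of lymphatic vessels, had no read in kidney against 0.215, 1.08 and 12.4 in ovary. PARVB, an adaptor of integrins, also had no read, against 0.180, 0.942 and 1.84 in lung. MMD was at 0.0965 RPKM against 0.430, 2.02 and 31.1 in ovary, and TM6SF1 at 0.0344 against 0.260, 1.16 and 2.38 in heart. These named genes were all within 6 reads of 0 in kidney, so their differences depend on the pseudocount. Genes without a symbol reached further down, led by ENSSSCG00000015663, with no read in kidney against 3.20, 14.0 and 121 RPKM in spleen. With a pseudocount of 1 a total of 1 gene was called below every organ.

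Markers of other organs gave the background against which these levels can be read. Among genes that passed the filter, none of 14 lists had a member at least 2-fold above every other organ. For the urothelium 0 of 4 matched genes passed the filter, and without the filter 1 of them was above every organ. Summed over the matched markers, kidney had 0.0896 RPKM for the adrenal gland, with 4 of 6 genes at 0 and CHGA highest at 0.0659, and 0.533 RPKM for the urothelium, all of it from UPK1A. Cardiomyocyte genes summed to 0.273 RPKM (MYH6 0.192), lung epithelium to 1.32 (SFTPC 0.863), germ cells to 1.88 (ODF2 1.34), ovary to 1.74 (GDF9 1.72), the 1 skeletal muscle gene ACTA1 to 1.11 and adipocyte genes to 0.529 (CIDEC 0.425). In their own organs these sums were 20.5 RPKM for ovary and 153 to 8832 RPKM for the others with an organ here.

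Hepatocyte markers summed to 28.3 RPKM in kidney, above the median of the other organs (1.48) and below lung (454) and liver (7600). TF, transferrin, supplied most of it at 17.0 RPKM, and 8 of the 12 matched genes were at least 2-fold above the median organ. Their part in the values of the enzymes shared with liver was not tested.

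Cells common to all organs were not more marked in kidney than in all other libraries. Macrophage markers summed to 2.77 RPKM (MRC1 1.69) against a median of 16.2, and 4 of 5 were at least 2-fold below the median organ. Smooth muscle and mesangial markers summed to 30.9 RPKM (ACTA2 12.8) against a median of 247, red cell markers to 4.53 (HBB 4.06) against 10.6, endothelial markers to 21.4 (PECAM1 8.87) against 17.1 and lymphoid markers to 8.11 (PTPRC 4.69) against 4.92. Lymphoid and endothelial levels thus lay inside the range of the other organs, and no marker of the 14 lists was highest in kidney except UPK1A.

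**Figure D4:**
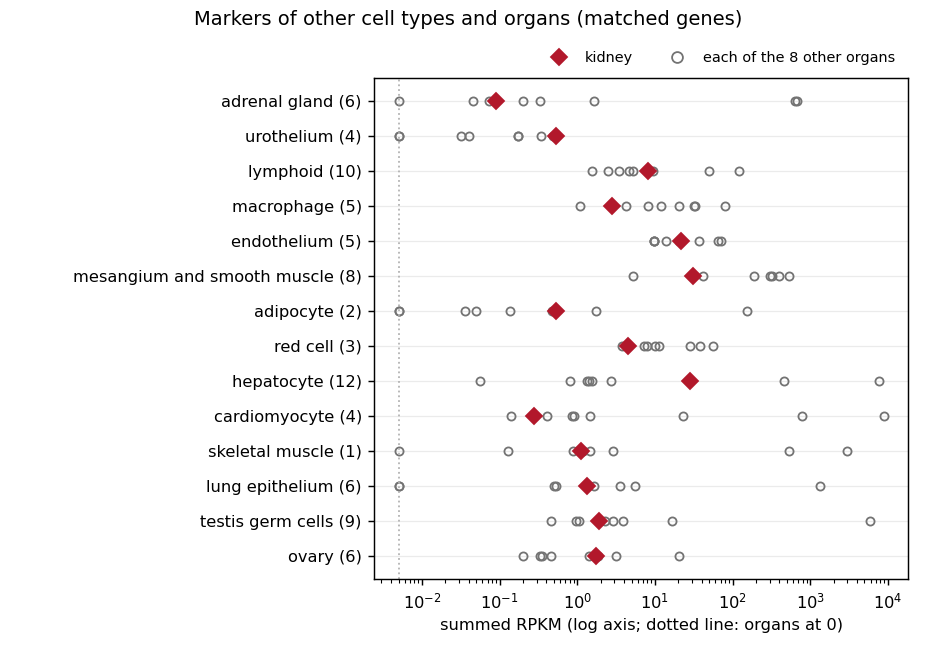
Summed RPKM (log axis) of the matched markers of 14 other cell types and organs in kidney (red diamonds) and each of the 8 other organs (open circles), with the number of matched genes in brackets. Organs at 0 are drawn on the dotted line. Kidney lies left of heart, liver, lung, testis, ovary, adipose tissue and muscle for their own markers, and its hepatocyte sum (28.3) is above all organs but liver and lung.

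Genes called in kidney were placed along the chromosomes through the order of protein-coding genes in RefSeq (assembly Sscrofa11.1). Of 295 called genes with a place, 25 (8.47%) had a called gene as direct neighbour, beside 303 of 8914 tested genes (3.40%). The 13 pairs included carriers of 1 family, SLC22A8 with SLC22A6 and SLC6A18 with SLC6A19. They also included HOXB7 with HOXB8, CLDN16 with TMEM207, EGF with LRIT3 and SLC7A13 with ATP6V0D2. Reads of near-identical neighbours may be split between them, which the values cannot show.

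Among lncRNAs, which here are assembled transcripts without coding potential, 171 (5.11%) lay at least 2-fold above every other organ in kidney and 58 of them at least 8-fold above. At least 2-fold below every other organ were 2 (0.0598%), TCONS_00437649 and TCONS_00252918. Against the median organ 873 (26.1%) were higher and 170 (5.08%) were lower. Other organs except testis (1626) and ovary (280) had 38 to 95 lncRNAs at least 2-fold above every other organ. Across lncRNAs the Spearman correlation of kidney was highest with lung (0.560) and was -0.19 with testis. The filter takes a feature by its highest organ, and the 3346 tested lncRNAs include the 1626 of testis. The value with testis therefore depends on the filter and does not show opposed profiles.

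Kidney lncRNAs were less abundant than kidney genes. Their median was 2.24 RPKM and 67 reads, against 6.68 RPKM and 428 reads for the 463 Ensembl genes. At least 20 kidney reads lay behind 155 of the 171. Reads are the smallest possible for features above 0 in 1 to 3 libraries, which were 45 of these lncRNAs and 34 of these genes. The counts of reads may therefore be too low, for lncRNAs more often than for genes. Where at least 4 libraries held reads, called lncRNAs (126) had a median length of 859.5 bases and tested ones (2106) of 626.5 bases. No read in the other 8 organs was found for 22 lncRNAs and 16 Ensembl genes.

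TCONS_00795875 had the greatest difference, with 16.6 RPKM in kidney (14.5 to 18.9) and 0 in the other 8 organs, at least 44.9-fold above the floor. TCONS_00164403 was at 6.54 RPKM (5.62 to 7.57) and also at 0 in the other 8, at least 36.0-fold above the floor. Both were thus seen in kidney alone among the 9 organs. TCONS_00505690 (6.04 RPKM) and TCONS_00825146 (4.79 RPKM) were likewise at 0 elsewhere and rested on at least 9 and 35 reads. These reads are the smallest possible, because few libraries held reads of these 2 lncRNAs. The bound for TCONS_00505690 was 1.79-fold at a length of 41 bases, the shortest that gives whole reads. A longer true length would raise its reads and its bound.

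Others of the 8 leading lncRNAs had traces elsewhere. TCONS_00530918 was at 13.1 RPKM in kidney against 0, 0.00551 and 0.101 in adipose tissue, a ratio of 130 (68.1 to 284). TCONS_00063101 was at 17.1 RPKM against 0, 0 and 0.214 in lung. TCONS_00016874 and TCONS_00016873 were at 15.8 and 18.7 RPKM against 0.156 and 0.242 in lung. The last 2 have adjacent identifiers, and whether they are separate loci was not tested. In all, 10 of the 171 (5.85%) had such a called neighbour by identifier. Among the 3346 tested lncRNAs, 146 had a tested neighbour by identifier, a count that uses a different set of neighbours.

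The most abundant lncRNA of kidney did not mark it. TCONS_00512109 was at 5375 RPKM in kidney, more than any Ensembl gene there, and at 6380 in heart and 6038 in muscle. It was also at 3057 RPKM in ovary, 2217 in adipose tissue, 1912 in lung, 1852 in testis, 1173 in spleen and 278 in liver. Kidney, heart and muscle were also the 3 organs with the highest share of mitochondrial transcripts.

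At much lower levels, TCONS_00353003 was at 34.5 RPKM in kidney against 0.367, 2.67 and 6.38 in muscle. TCONS_00369295 was at 44.6 RPKM against 18.5 in adipose tissue, and TCONS_00369554 at 32.4 against 15.4 in lung. Each was called, but scaling to the same total ended the call of the last 2. TCONS_00651860 was at 27.4 RPKM in kidney and 21.9 in lung and was not called.

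**Figure D5:**
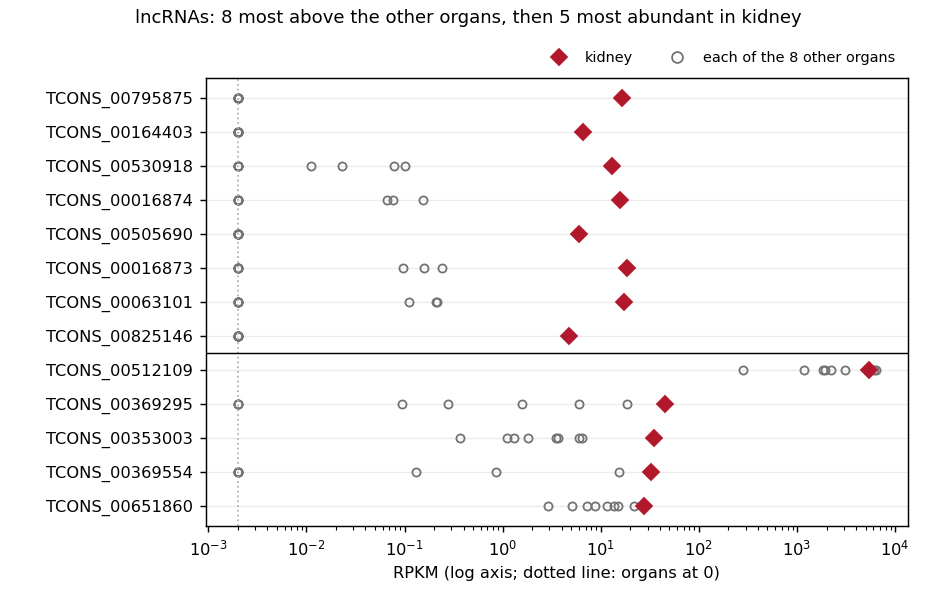
RPKM (log axis) of 13 lncRNAs in kidney (red diamonds) and each of the 8 other organs (open circles), with organs at 0 on the dotted line. Above the line are the 8 with the greatest difference to the highest other organ, all below 0.25 RPKM elsewhere, and under it the 5 most abundant in kidney, led by TCONS_00512109 at 5375 RPKM.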

How the data were processed

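Total RNA was depleted of ribosomal RNA and sequenced from strand-specific libraries. The authors mapped reads with TopHat (version 1.3.2 in the submitters' processing notes), assembled transcripts with Cufflinks, counted reads with htseq-count and deposited RPKM values, 1 per feature and library. The assembly and the strand setting used in counting are not given in the sources used here. Groups followed the labels, and 9 adult libraries of 1 sample each were compared. Symbols were matched for 11654 of 21607 Ensembl genes.

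Library totals and feature lengths that give whole reads were recovered from the RPKM values and checked on simulated data. RPKM from these reads differed from the deposited value by at most a relative 1.2e-13. For features above 0 in 1 to 3 libraries the reads are the smallest possible. Differences used log2(RPKM + 0.1), features with at least 1 RPKM in 1 organ and a limit of 1. No depth correction was applied beyond RPKM. Intervals are exact Poisson for 1 value and Clopper-Pearson for ratios (95%). PCR copies are not independent molecules. The floor was 3 reads, taken per library at its highest over the 8 organs. The members and lists were chosen with earlier results of these data known. Genes named are the leading members of each list and the features with the most extreme differences or levels, plus well-known kidney genes. Alternatives changed the pseudocount, filter, scaling and organs. Promoter sequences were not analysed here. Python 3.11.15 was used with pandas 2.3.3, numpy 2.4.6, scipy 1.17.1 and matplotlib 3.10.9. Some genes are not reported here.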

Additional observations from a re-analysis of the deposited data

Results flagged for a closer look

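The mixture libraries, which entered no comparison, were searched for features called in kidney and without a read in the 8 other adult organs. In the mixture of multiple tissues, all 16 such Ensembl genes had at least 3 reads, with ENSSSCG00000025257 highest at 4.02 RPKM. Of the 22 such lncRNAs, 15 had at least 3 reads there, with TCONS_00795875 highest at 5.71 RPKM. In the mixture of muscle samples 0 of the 16 genes and 2 of the 22 lncRNAs had at least 3 reads, the higher of them TCONS_00258982 at 0.0667 RPKM. Longissimus dorsi of day 0 and day 30 had none of either kind. The labels do not name the tissues of the first mixture.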

How the results depend on the processing

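No paired analysis was possible because each organ has 1 library, so no value has a replicate check. Ensembl genes above every organ numbered 274 at a minimum of 5 RPKM and 869 without testis and ovary. lncRNAs above every organ numbered 105 with a pseudocount of 1, 368 without a filter and 38 at 5 RPKM. Genes below every organ numbered 57 and 1 with pseudocounts of 0.01 and 1, 20 at 5 RPKM, 80 under the median ratio and 86 without liver. Genes above the median organ numbered 1917 with a pseudocount of 1 and 2101 at 5 RPKM. Genes below it numbered 316 with a pseudocount of 1, 934 at 5 RPKM and 957 without testis and ovary. lncRNAs above the median organ numbered 331 with a pseudocount of 1, 1756 without a filter and 176 at 5 RPKM. lncRNAs below it numbered 344 and 10 with pseudocounts of 0.01 and 1, 36 at 5 RPKM and 109 without testis and ovary. The median ratio reversed ASS1 (-0.36), EGF (-0.21) and ENSSSCG00000005395 (-0.26). Under it 344 of the 463 genes and 119 of the 171 lncRNAs were called again, and under equal totals 389 and 148. Leaving out lung, an alternative chosen after seeing the data, gave 540 genes and 187 lncRNAs. The other counts over all genes or all lncRNAs stayed within 1.5 times of the reported ones. At 5 RPKM list counts that moved by more than 1.5 times were: intercalated cell 11 to 4, transcription factors 11 to 4, HOX genes 6 to 1, loop of Henle 8 to 5, hormones 4 to 2, distal convoluted tubule 2 to 1 and aquaporins 2 to 1. The cause of these changes was not tested. The promoter comparison planned was not run.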
